A study of Homo sapiens with 9 samples.

Results

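Cytosolic ribosomal protein genes encode the proteins that, with ribosomal RNA, build the large (RPL) and small (RPS) subunits of the cytosolic ribosome. Members were the rows of the deposited expression table named RPL or RPS followed by a number (with an A, or for RPS an A or X, allowed at the end), RPLP0 to RPLP2 or RPSA, whose mean over the 9 libraries was at least 10 FPKM. FPKM scales the fragments of a gene to its exon length and to the size of the library. The names matched 77 of 58735 rows, and 73 passed the limit on the mean, 44 of the large and 29 of the small subunit. Members were thus chosen by their names and selected on mean FPKM, so levels are given as a description.

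RNA was sequenced in H1299, an established human lung cancer line, with 3 libraries in each of 3 groups. KO1 and KO2 are 2 knockout lines, each grown from 1 cell by limiting dilution after CRISPR editing of BCKDK, the kinase that inhibits the breakdown of branched-chain keto acids. Vector cells carried the lentiCRISPR v2 plasmid and are labelled wild type. Vector cells are not described as grown from 1 cell, so editing and cloning cannot be told apart. The labels do not say whether the 3 libraries of each kind are separate cultures, and a p-value here measures only the spread between them, which may be technical. In such bulk RNA, fewer cells of a kind and less RNA per cell cannot be told apart.

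Every ribosome needs 1 copy of nearly each of these proteins, and growing cells spend much of their transcription and translation on making them. Most of the messenger RNAs open with a C followed by a run of pyrimidines, the 5′ terminal oligopyrimidine (5′ TOP) motif, through which mTORC1 and the RNA-binding protein LARP1 control their translation and stability. MYC is known to drive transcription of ribosomal protein genes, and MYC is one of the genes in the title of the study. These genes have also left many processed pseudogenes in the human genome, which can take up or give reads.

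The first bases of the transcripts are shown because they carry the motif that the family shares. RefSeq promoters (GRCh38.p14) were found for 59 of the 73 members. In 44 of these, or 74.6%, an annotated start was a C followed by at least 4 C or T on the transcript strand. That held for 1404 of 27305 genes with an entry, or 5.1%. A gene with several entries counted if any of them matched, here and for the E-box below. Each line below holds 15 bases before and 15 from an annotated start of a member that is described with its values below. Of several entries, an entry with the motif is shown where present. Capitals mark the unbroken pyrimidine run where it begins with a C at that start. The first 9 have the motif at that base.
RPL13A, chr19:49487593-49487622, plus strand: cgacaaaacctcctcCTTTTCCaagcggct
RPL18, chr19:48619164-48619193, minus strand: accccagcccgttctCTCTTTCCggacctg
RPL28, chr19:55385917-55385946, plus strand: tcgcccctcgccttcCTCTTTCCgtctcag
RPS16, chr19:39435935-39435964, minus strand: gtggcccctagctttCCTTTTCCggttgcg
RPS19, chr19:41860240-41860269, plus strand: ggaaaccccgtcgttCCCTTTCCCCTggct
RPL26, chr17:8383179-8383208, minus strand: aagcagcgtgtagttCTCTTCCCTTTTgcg
RPS12, chr6:132814554-132814583, plus strand: gcgtgcggatgaggcCTCTTTCCCTgccgc
RPSA, chr3:39406705-39406734, plus strand: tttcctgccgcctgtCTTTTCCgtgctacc
RPL21, chr13:27251543-27251572, plus strand: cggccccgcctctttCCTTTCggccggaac
RPS4X, chrX:72277234-72277263, minus strand: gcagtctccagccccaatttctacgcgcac
RPS29, chr14:49598696-49598725, minus strand: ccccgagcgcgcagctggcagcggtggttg
RPL4, chr15:66504841-66504870, minus strand: tacagcgggagtggtaagcacttccttttc
In the last 3 lines the annotated start is not a C, though in RPL4 a pyrimidine run follows some bases after it. Among members with the start motif the median log2 difference was 0.18 in KO1 against Vector and 0.022 in KO2 against Vector (44 members). Among the 15 without it at an annotated start, which can hold a run further on, the medians were -0.055 and -0.20. The E-box CACGTG, the letters that MYC binds, stood within 250 bases before to 50 after the start in 4 of 59 members, or 6.8%, and in 8.8% of all genes. These matches are descriptions of letters and were not tested against the changes.

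BCKDK went with the labels: KO1 libraries had 1.91, 2.06 and 1.67 FPKM and KO2 libraries 0.629, 0.576 and 0.287 FPKM, against 13.7, 12.9 and 17.5 FPKM in Vector. None of 5 lung alveolar markers (NKX2-1, NAPSA, SFTPB, SFTPC, SFTA2) reached a mean of 1 FPKM, whereas 4 of 4 mesenchymal markers and, of 5 epithelial ones, KRT8 and KRT18 did. Summed epithelial marker levels were 426 to 489 FPKM in KO1, 102 to 121 FPKM in KO2 and 66.7 to 91.7 FPKM in Vector. No leukocyte, endothelial, fibroblast or erythroid marker reached 1 FPKM. Libraries held 16002212 to 17090445 reads assigned to genes, and members took 3.944% to 6.497% of them, with 488 to 53420 reads for a member in a library.

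Members differed widely in listed level. RPL8, a core protein beside the peptidyl transferase centre, was highest with a mean of 1050.0 FPKM. RPS12, in the beak of the small subunit, followed with 966 FPKM, and RPL13A, which also forms part of an interferon-gamma-activated inhibitor of translation in myeloid cells, with 935.7 FPKM. At the low end RPL26, near the polypeptide exit tunnel, had a mean of 22.6 FPKM. RPS15A had 11.7 FPKM and RPS29, a small zinc-binding protein of the small subunit head, had 11.5 FPKM. Outside the limit were RPL17 with 6.82, RPL36A with 3.03 and RPS10 with 2.09 FPKM, all 3 of them sharing exon with other genes on the same strand (8.4% to 39.4% of exon length).

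These levels depend strongly on the exon length used to scale them. Merged exons of members spanned 767 to 9845 bases (median 3109), while the transcripts that GENCODE tags as APPRIS principal had a median of 712 bases. RPS29 was scaled to 9845 bases although its principal transcript has 296, and with that length it ranked 64 of 73 in place of last. Scaling reads to principal transcripts narrowed the ratio of the highest to the lowest member to 44.3, against 91.1 for the deposited values. The order also changed, with RPL8, RPL13 and RPS19 highest and RPL37, RPS23 and RPL22 lowest, 2 of them (RPL37 with 7686 bases and RPS23 with 3437) through long principal transcripts.

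A total of 1132 rows were named as pseudogenes of members, and 546 of them had a read. They held 4.13% to 4.72% as many reads as the members did in a library. A member had a median of 9 such rows, with 91 for RPL23A, 74 for RPSA and 66 for RPL21, and none for RPL28. Exons of 31 members were shared in part with another gene on the same strand, up to 25.6% for RPS2, and 27 members enclose snoRNA genes, 57 in all. Values of such genes are uncertain, since the handling of reads that fit several places is not given in the sources used here.

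**Figure D1:**
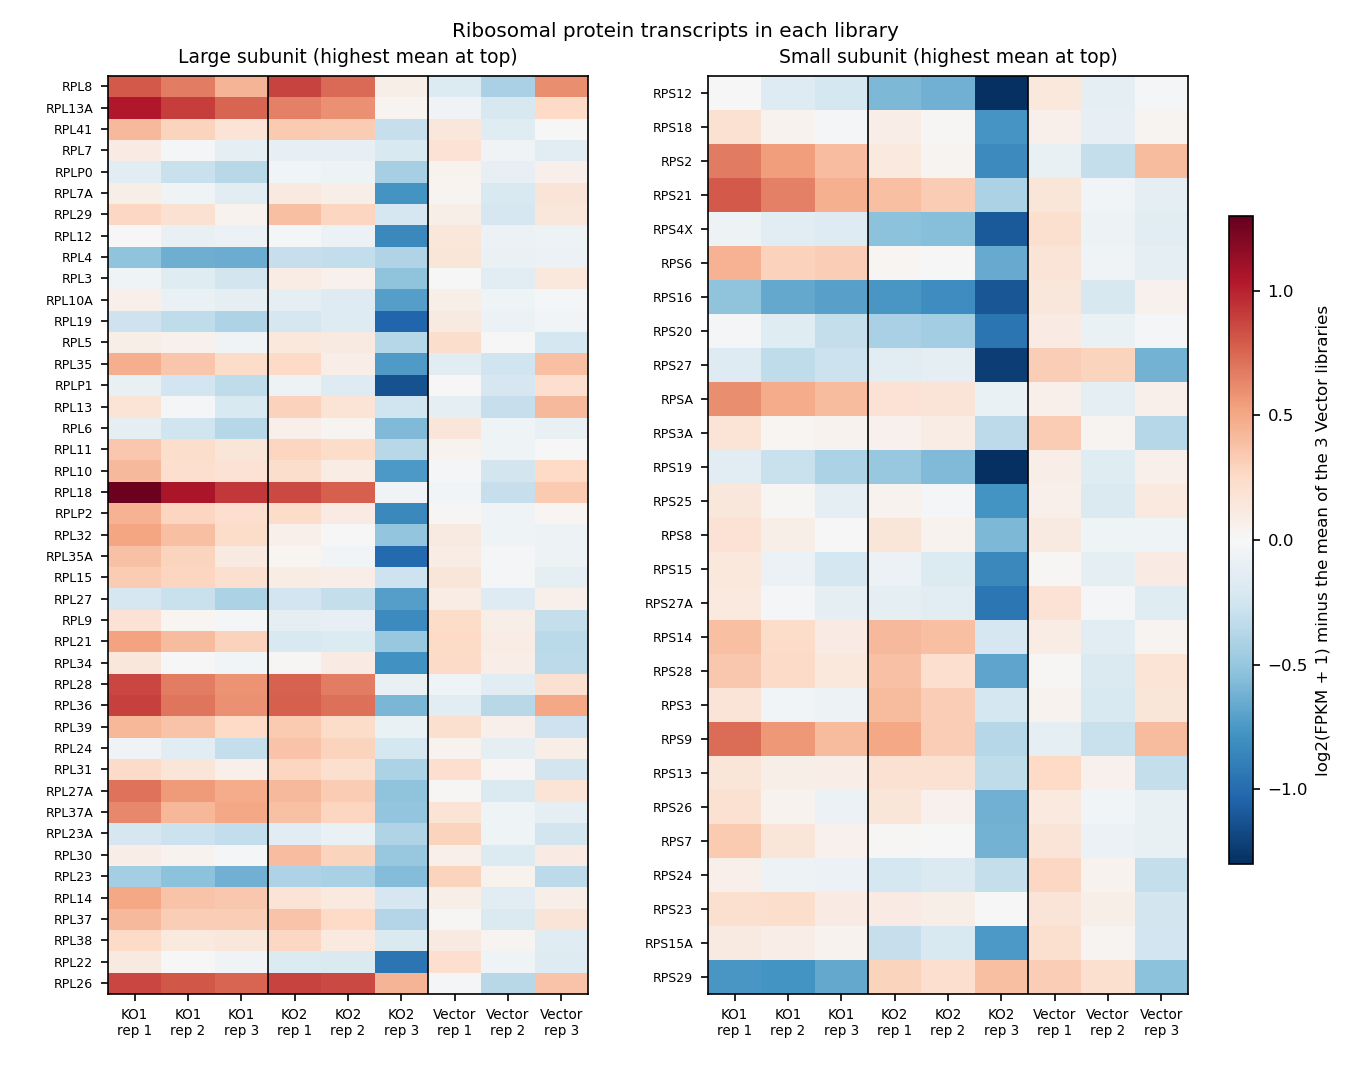
Each row is a ribosomal protein gene and each column a library (3 each of KO1, KO2 and Vector), and colour gives log2(FPKM + 1) minus the mean of the 3 Vector libraries. KO2 replicate 3 is blue in most rows, and RPL18, RPL13A and RPL28 are red in all KO1 libraries.

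KO2 replicate 3 stood apart from the other KO2 libraries. It was lower than the mean of KO2 replicates 1 and 2 for 72 of 73 members, with a median log2 difference of -0.64. The deepest was RPL36, a small protein of the large subunit, at 50.7 FPKM in replicate 3 beside 132.5 and 126.9 FPKM in replicates 1 and 2. RPS29 alone was higher there, by 0.14 on the log2 scale.

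Among the 4449 other genes averaging 10 FPKM or more the median difference of this library was -0.027, with 2379 of them lower. Genes for mitochondrial ribosomal proteins, which serve a separate ribosome, had a median of -0.27, and genes listed with the translation elongation factors 0.059. Short exon length moved with it in part: other genes with exons of 1000 to under 2000 bases had a median of -0.34 and those with 4000 bases or more 0.078, whereas members of those lengths had -0.83 and -0.62. Across members the difference had r = -0.44 with GC content and 0.36 with log2 exon length (n = 73 genes measured in the same libraries). The part of GC content and exon length in the low values of this library was not tested.

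Vector replicate 3 also stood apart, but without a common direction. Relative to Vector replicates 1 and 2 it was higher for 37 and lower for 36 members, with a median of 0.0049, and it ran between -0.92 for RPS27 and 0.90 for RPL8 on the log2 scale. Its difference had r = 0.65 with GC content across members and 0.72 across all 16426 genes fitted. RPL8 illustrates it, with 1157 FPKM in Vector replicate 3 beside 674.5 and 568.8 FPKM in replicates 1 and 2. In KO1 RPL8 had 1328, 1207 and 1038 FPKM and in KO2 1401, 1271 and 805.7 FPKM. The groups overlapped only through Vector replicate 3, and RPL8 was not called in either clone with all 9 libraries (limma adjusted p = 0.12 and 0.178). It was called in both without the 2 libraries, with log2 differences of 0.93 and 1.11 (limma adjusted p = 0.00109 and 0.00102). Its SE in KO1 against Vector went from 0.29 to 0.13. Leaving out libraries because they stand apart narrows the spread by itself, so such adjusted p-values can be too small, here and below.

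In KO1 against Vector, 13 of the 73 members were called, 9 higher and 4 lower in KO1. That is 17.8% of members, beside 34.1% of the 16426 genes fitted (17.4% higher, 16.7% lower) and 38.5% of the 4449 other genes at 10 FPKM or more. Calls were made with limma on log2(FPKM + 1) at a Benjamini-Hochberg adjusted p under 0.05. The median log2 difference of members was 0.086, against 0.0083 for all genes, with 49 members above and 24 below 0. But it was -0.0021 with libraries scaled to an equal FPKM sum. At that scale 5 members rose and 4 fell, beside 12.8% and 19.7% of all genes. Standard errors of members were larger, with a median of 0.19 against 0.15. Without Vector replicate 3 and KO2 replicate 3 these medians were close, at 0.093 and 0.092. KO1 risers included RPL18, RPL13A, RPL26, RPL28, RPS21, RPSA and RPL14, and RPS16, RPL4 and RPL23 fell. The 4th lower call was RPS29, whose KO1 mean is under the limit of 10 FPKM.

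RPL18, of the large subunit, had 329, 283 and 257 FPKM in KO1 against 131.7, 109.7 and 170.8 FPKM in Vector. The groups were apart, with Vector replicate 3 the highest control (log2 difference 1.09, SE 0.25, limma adjusted p = 0.00981).

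RPL13A had 1357, 1233 and 1116 FPKM in KO1 against 639.5, 571.3 and 789.7 FPKM in Vector, again with no overlap (0.90, SE 0.20, limma adjusted p = 0.00772). RPL26 had 28.1, 26.9 and 26.02 FPKM in KO1 against 14.8, 11.5 and 19.6 FPKM in Vector. It rose by 0.81 (SE 0.19, limma adjusted p = 0.00914), with KO1 libraries close together and Vector libraries spread.

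RPSA, which doubles in older literature as the laminin receptor precursor, had 408, 374 and 356 FPKM in KO1 against 279, 244 and 280.2 FPKM in Vector and rose by 0.50 (limma adjusted p = 0.0133). Further KO1 risers were RPL28 at 0.71, RPS21 at 0.64 and RPL14 at 0.41 on the log2 scale (limma adjusted p = 0.0329, 0.0447 and 0.0368). Calls of RPL28, RPS21, RPL14 and RPSA were each lost without 1 of several libraries. The highest limma adjusted p came without KO1 replicate 1 and was 0.11, 0.14, 0.129 and 0.0618 in that order of genes.

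Of those that fell, RPL4 lines the exit tunnel with a long loop. It had 341, 317 and 314 FPKM in KO1 against 549, 464 and 465 FPKM in Vector, with a narrow spread in both groups (-0.60, SE 0.11, limma adjusted p = 0.0037). RPS16, whose tail reaches the P-site transfer RNA, had 389, 352 and 341 FPKM in KO1 against 616, 484 and 581 FPKM in Vector. The groups did not overlap, and the difference was -0.63 (SE 0.14, limma adjusted p = 0.00951).

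RPS29 had 6.76, 6.63 and 7.30 FPKM in KO1 against 15.4, 14.2 and 8.07 FPKM in Vector. Vector replicate 3 lay just above KO1. With means of 6.90 FPKM in KO1, 15.2 FPKM in KO2 and 12.5 FPKM in Vector it is a member only through KO2 and Vector, so its difference of -0.73 is a description with no test. RPL23, at the face where the subunits join and where eIF6 binds, had 59.1, 55.5 and 51.8 FPKM in KO1 against 98.5, 83.4 and 63.5 FPKM in Vector, and fell by 0.53 on the log2 scale (limma adjusted p = 0.0253). Every KO1 value was below every Vector value for RPL23 as well. The RPL23 call was lost without Vector replicate 1 or 2 or any 1 KO1 library, with limma adjusted p of up to 0.0901.

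Across members, all KO1 libraries were above all Vector libraries for 25 and below them for 8, that is 33 of 73, beside 50.1% of all genes fitted. The count of 9 that rose became 4 without Vector replicate 2, KO1 replicate 1 or KO1 replicate 2, 5 without KO1 replicate 3 and 19 without KO2 replicate 3, which enters only the shared spread. The share of all genes that rose moved too, from 17.4% to 12.2%, 11.4%, 11.2%, 12.3% and 20.2% in the order of these libraries. The 4 that fell became 2 without Vector replicate 1 or 2 or KO1 replicate 1 or 2, when 11.4% to 12.8% of all genes fell in place of 16.7%.

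**Figure D2:**
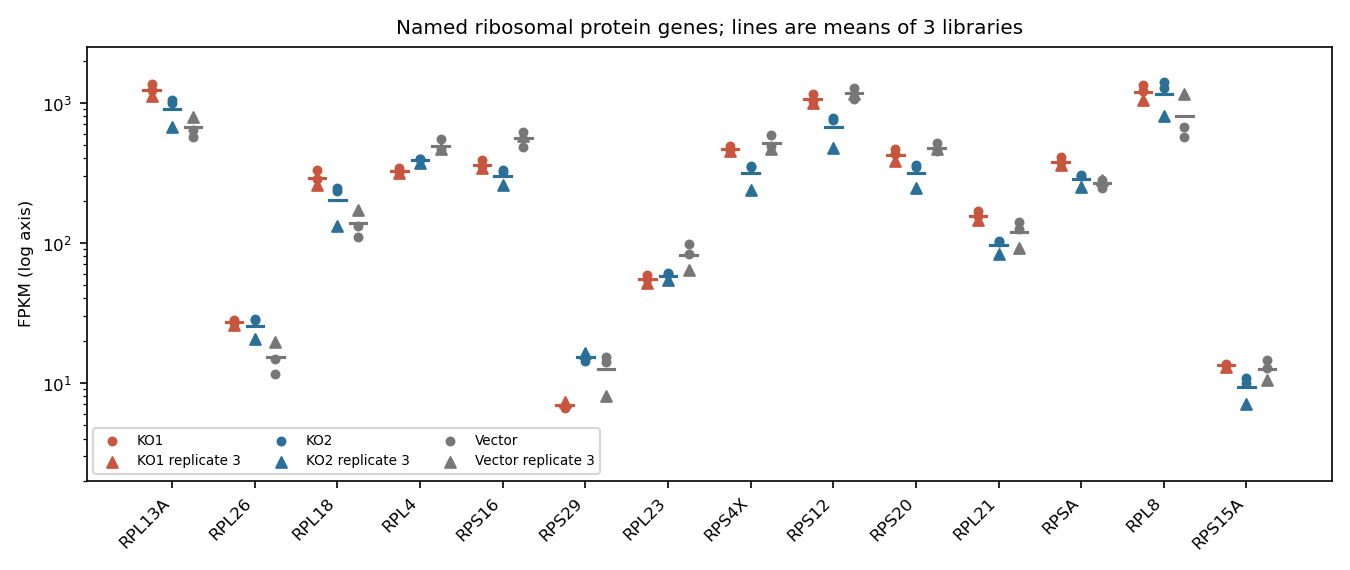
FPKM on a log axis for named members in each library of KO1, KO2 and Vector, with triangles for replicate 3 and lines for the mean of 3 libraries. KO1 lies above Vector for RPL13A, RPL26 and RPL18, and KO2 lies below Vector for RPS16, RPS4X, RPS12 and RPS20.

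In KO2 against Vector, 7 members were called, 2 higher and 5 lower in KO2, which is 9.59% of members beside 27.9% of all genes fitted and 31.4% of other genes at 10 FPKM or more. RPL26 rose, and RPS16, RPS12, RPS19, RPS4X and RPS20, all of the small subunit, fell. The median of members was -0.13, against -0.0049 for all genes, but it was 0.096 without KO2 replicate 3, so the direction of the family turned on that library.

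RPL26 had 28.4, 27.9 and 20.7 FPKM in KO2, so that replicate 3 lay just above the highest Vector library at 19.6 FPKM (0.73, SE 0.19, limma adjusted p = 0.0179). No KO2 library of the gene reached down into the Vector range. The RPL26 call was lost without Vector replicate 1 or 2 or KO2 replicate 1 or 2 (limma adjusted p = 0.0536, 0.0558, 0.0624 and 0.0622).

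RPS16 had 330.4, 317.8 and 256.9 FPKM in KO2 against 484 to 616 FPKM in Vector, a difference of -0.89 (SE 0.14, limma adjusted p = 0.00202). RPS12 had 775, 756 and 474 FPKM in KO2 against 1283, 1067 and 1148 FPKM in Vector (-0.83, SE 0.20, limma adjusted p = 0.0128). For both genes KO2 replicates 1 and 2 alone were clearly under the Vector range, and replicate 3 was lower still. Without Vector replicate 1 the RPS12 call was just lost (limma adjusted p = 0.0505).

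RPS4X, an X-linked gene that escapes X inactivation, had 352, 347 and 239 FPKM in KO2 against 591, 488 and 464 FPKM in Vector (-0.73, SE 0.17, limma adjusted p = 0.0122). RPS20, a head protein that the ubiquitin ligase ZNF598 marks on collided ribosomes, had 356, 349 and 246 FPKM in KO2 against 513, 450.2 and 470.2 FPKM in Vector (-0.61, limma adjusted p = 0.0221). RPS19, the gene most often mutated in Diamond-Blackfan anaemia, averaged 208 ± 66.2 FPKM in KO2 and 358 ± 32.2 FPKM in Vector (SD, n = 3 each), a difference of -0.83 (limma adjusted p = 0.0244). KO2 libraries lay below all Vector libraries in each of these 3 genes, and without Vector replicate 1 RPS20 and RPS19 were not called (limma adjusted p = 0.0744 and 0.0765).

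All KO2 libraries were above all Vector libraries for 2 members and below them for 11, that is 13 of 73, beside 39.0% of all genes. Without Vector replicate 1 only 2 of the 73 fell and without its replicate 3 there were 10, in place of 5. The 2 that rose became 1 without Vector replicate 1 or 2 or KO2 replicate 1 or 2 and 8 without KO2 replicate 3. Over all genes 10.6% fell without Vector replicate 1 and 21.0% without its replicate 3. The share that rose was 12.9% with all libraries, 8.91% to 9.63% without Vector replicate 1 or 2 or KO2 replicate 1 or 2, and 12.5% without KO2 replicate 3.

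In KO2 against KO1, 8 members were called, 1 higher and 7 lower in KO2. That is 11.0% of members, beside 30.9% of all genes (14.5% higher, 16.4% lower) and 36.9% of other genes at 10 FPKM or more. With libraries scaled to an equal FPKM sum 2 rose and 1 fell. The share of all genes at that scale is not given here for this comparison, so these counts are a description. The median of members was -0.26 (all genes -0.017), with 62 below and 11 above 0, and it was -0.040 without KO2 replicate 3. The 1 higher call was RPS29, with 15.01, 14.2 and 16.2 FPKM in KO2 against 6.76, 6.63 and 7.30 FPKM in KO1. It was high in every KO2 library, KO2 replicate 3 included. Since its KO1 mean is under the limit, the log2 difference of 1.03 is a description with no test.

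RPL21, of the large subunit, had 102, 104 and 82.6 FPKM in KO2 against 168, 156 and 145 FPKM in KO1 (-0.70, SE 0.17, limma adjusted p = 0.0123). RPS12 had 474 to 775 FPKM in KO2 against 994 to 1162 FPKM in KO1 (-0.70, limma adjusted p = 0.0242), and RPS4X 239 to 352 FPKM in KO2 against 455 to 489 FPKM in KO1 (-0.60, limma adjusted p = 0.0253). RPSA had 304.5, 300.9 and 251.4 FPKM in KO2, against 356 to 408 FPKM in KO1 (-0.41, limma adjusted p = 0.0329). In none of these 4 genes did a KO2 library reach the KO1 range. Without KO1 replicate 1 none of the 4 was called, with limma adjusted p of 0.0527, 0.0884, 0.0856 and 0.128 in the order given.

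RPS6, the small subunit protein that S6 kinases phosphorylate, had 407, 401 and 255 FPKM in KO2 against 548, 494 and 499 FPKM in KO1 (-0.57, limma adjusted p = 0.045). RPL32 also fell, by 0.54 on the log2 scale (limma adjusted p = 0.0339). Both calls were lost without KO1 replicate 1 (limma adjusted p = 0.138 and 0.122). The remaining lower call was RPS15A, with 9.99, 10.7 and 7.05 FPKM in KO2 against 13.6, 13.3 and 12.99 FPKM in KO1. Its KO2 mean of 9.26 FPKM is under the limit, which it passed through KO1 and Vector (means 13.3 and 12.6 FPKM), so its difference of -0.50 is a description with no test.

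Libraries of KO2 lay below all of KO1 for 26 members and above them for 2, that is 28 of 73, beside 53.6% of all genes. The 7 that fell became 0 without KO1 replicate 1 and 1 without KO1 replicate 2 or 3, and the 1 that rose became 2 without KO2 replicate 3. Over all genes 10.5% to 11.5% fell without a KO1 library in place of 16.4%, and 13.6% rose without KO2 replicate 3 in place of 14.5%.

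Several members with well-known roles had no call in any comparison with all 9 libraries. RPL5 and RPL11, which bind 5S ribosomal RNA and, when free, inhibit MDM2, had means of 341 and 255 FPKM in KO1, 329 and 227 FPKM in KO2, and 337 and 215 FPKM in Vector. RPLP0, RPLP1 and RPLP2, the stalk that recruits elongation factors, had log2 differences of -0.26, -0.23 and 0.32 in KO1 against Vector, and of -0.18, -0.46 and -0.16 in KO2 against Vector. RPS14, the gene lost in 5q- syndrome, averaged 206 ± 21.0 FPKM in KO1, 203 ± 46.7 FPKM in KO2 and 174 ± 14.4 FPKM in Vector (SD, n = 3 each). None of these differences passed the test with all 9 libraries. Over the 7 libraries described next RPL11 was higher in both clones (0.25 and 0.26, limma adjusted p = 0.0245 and 0.0334), RPLP2 in KO1 (0.33, limma adjusted p = 0.0154) and RPS14 in KO2 (0.43, limma adjusted p = 0.0199).

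Leaving out Vector replicate 3 and KO2 replicate 3 raised the calls among members and among all genes alike. Only replicates 1 and 2 of Vector and of KO2 then remain. Their spread is narrower because the libraries that stood apart were removed, so calls over 7 libraries can be too many. Over these 7 libraries KO1 against Vector had 27 members higher and 9 lower in KO1, 49.3% of members beside 56.8% of genes. KO2 against Vector had 21 higher and 12 lower in KO2, 45.2% of members beside 49.5% of genes. KO2 against KO1 had 7 higher and 10 lower in KO2, 23.3% of members beside 47.7% of genes. Of the other genes at 10 FPKM or more, 73.2%, 66.3% and 63.4% were called in these comparisons, in the order given. The median of members was 0.089 in KO1 against Vector, 0.070 in KO2 against Vector and -0.040 in KO2 against KO1, so the median of KO2 against Vector changed sign. These small medians depend on the deposited scale. All genes summed to 264027 and 259836 FPKM in KO2 replicates 1 and 2, and to 287050 to 302207 FPKM in KO1. In Vector replicates 1 and 2 they summed to 293309 and 268330 FPKM. Medians over these 7 libraries at an equal FPKM sum are not given here.

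Each of the 13, 7 and 8 members called with 9 libraries was also called with 7. Among those added, RPL36 had 142.9, 124.9 and 116.9 FPKM in KO1 and 132.5 and 126.9 FPKM in KO2, against 69.2 and 59.8 FPKM in the 2 Vector libraries kept (0.98 and 1.0, limma adjusted p = 0.000252 and 0.000478). Without the 2 libraries RPS27 was lower in both clones, at -0.57 in KO1 and -0.44 in KO2 (limma adjusted p = 0.00045 and 0.00274). RPS29 differed from Vector by -0.013 in KO2 and by -1.0 in KO1 over the same 7 libraries.

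Summed over the 73 members, expression did not separate the clones from Vector. KO1 libraries summed to 23873, 21751 and 20372 FPKM and KO2 libraries to 21288, 20419 and 13349 FPKM, against 20827, 18007 and 20370 FPKM in Vector. The ranges overlap, and KO2 replicate 3 lies far under all others. As a share of all FPKM in a library, members made up 7.9%, 7.371% and 7.097% in KO1 and 8.063%, 7.859% and 4.544% in KO2. In Vector they made up 7.101%, 6.711% and 7.581%. On that scale KO2 replicates 1 and 2 lay above every Vector library and KO2 replicate 3 below them. Since RNA is scaled to the library total, a change in total ribosomal protein messenger RNA per cell cannot be read from these sums.

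KO2 lay above the other groups in the ratio of the subunits, a description with no test. Summed FPKM of large subunit genes over small subunit genes was 1.299, 1.315 and 1.291 in KO1 and 1.506, 1.501 and 1.595 in KO2, against 1.234, 1.242 and 1.368 in Vector. All 3 KO2 libraries, replicate 3 included, were above the other 6. Without RPL8 and RPS12, the highest gene of each subunit, the ratio was 1.48, 1.48 and 1.58 in KO2, against 1.32, 1.33 and 1.32 in KO1 and 1.35, 1.35 and 1.42 in Vector. KO2 stayed above both.

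Without the 5 highest of each subunit the ratios were 1.53, 1.52 and 1.47 in KO2, 1.38, 1.39 and 1.38 in KO1 and 1.29, 1.31 and 1.45 in Vector. KO2 replicate 3 and Vector replicate 3 then lay close together. By genes, the median difference in KO2 against Vector was -0.081 for large and -0.20 for small subunit members. Calls numbered 1 of 44 and 6 of 29, or 2.27% and 20.7%, beside 27.9% of all genes. Without Vector replicate 3 and KO2 replicate 3 the medians were 0.15 and -0.013. Calls then numbered 19 and 14, or 43.2% and 48.3%, beside 49.5% of all genes. The difference between subunits was not tested, because the members were chosen with results known.

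**Figure D3:**
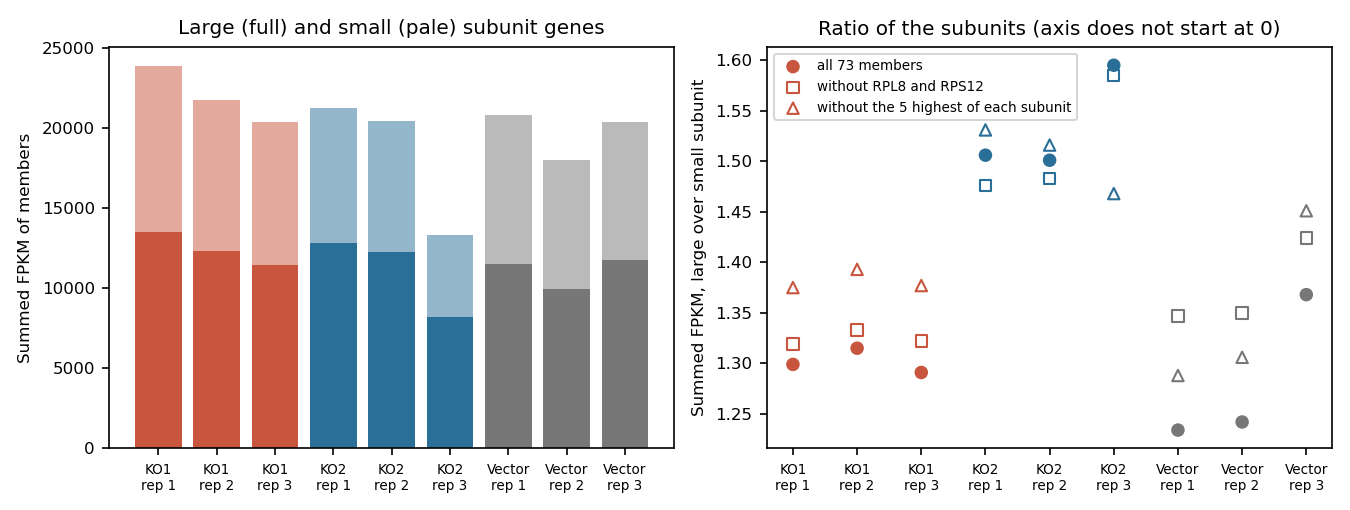
Left, summed FPKM of large (full colour) and small (pale) subunit genes in each library of KO1, KO2 and Vector. Right, their ratio with all 73 members, without RPL8 and RPS12, and without the 5 highest genes of each subunit, on an axis that does not start at 0. With all members the KO2 libraries lie at 1.501 to 1.595 and the other 6 libraries at 1.234 to 1.368.

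The members' differences tracked those of the genes around them on the chromosome. For each member the median log2 difference of the other fitted genes within 5 Mb was taken (11 to 277 genes, median 81). In KO1 against Vector the members' differences had r = 0.75 with these medians (Spearman's rho 0.75, n = 73), and 61 members lay on the same side of 0 as their neighbours. In KO2 against Vector r was 0.78 (rho 0.68) with 49 on the same side, and in KO2 against KO1 r was 0.69 (rho 0.52) with 58. The points share libraries, and members near each other share neighbours. The same values over all genes fitted are not given here, so whether members track their neighbours more than other genes do was not tested. Over 7 libraries r was 0.67, 0.78 and 0.76.

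With the neighbours' median subtracted in each library before the fit, 6 members rose and 1 fell in KO1 against Vector, 9.59% of members beside 29.1% of genes. The risers included RPL13A, RPL7, RPL18, RPL39 and RPL26, and RPL4 fell. RPL7 and RPL39 were not called before subtraction (-0.012 and 0.35, limma adjusted p = 0.956 and 0.111). RPL7 was thus higher only relative to its neighbours, whose median was -0.25. In KO2 against Vector only RPL26 remained, at 0.52 (limma adjusted p = 0.0216), 1 of 73 members beside 26.2% of genes. In KO2 against KO1 the calls were RPS29, at 0.49 and described without a test as above, and RPL13A, which fell by 0.50 on the log2 scale (limma adjusted p = 0.0346), 2 of 73 members beside 28.2% of genes. The calls of RPS16, RPS12, RPS19, RPS4X and RPS20 in KO2 were among those lost, with adjusted p between 0.062 and 0.273. The part of the chromosomal surroundings in the members' differences was not tested beyond this subtraction.

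**Figure D4:**
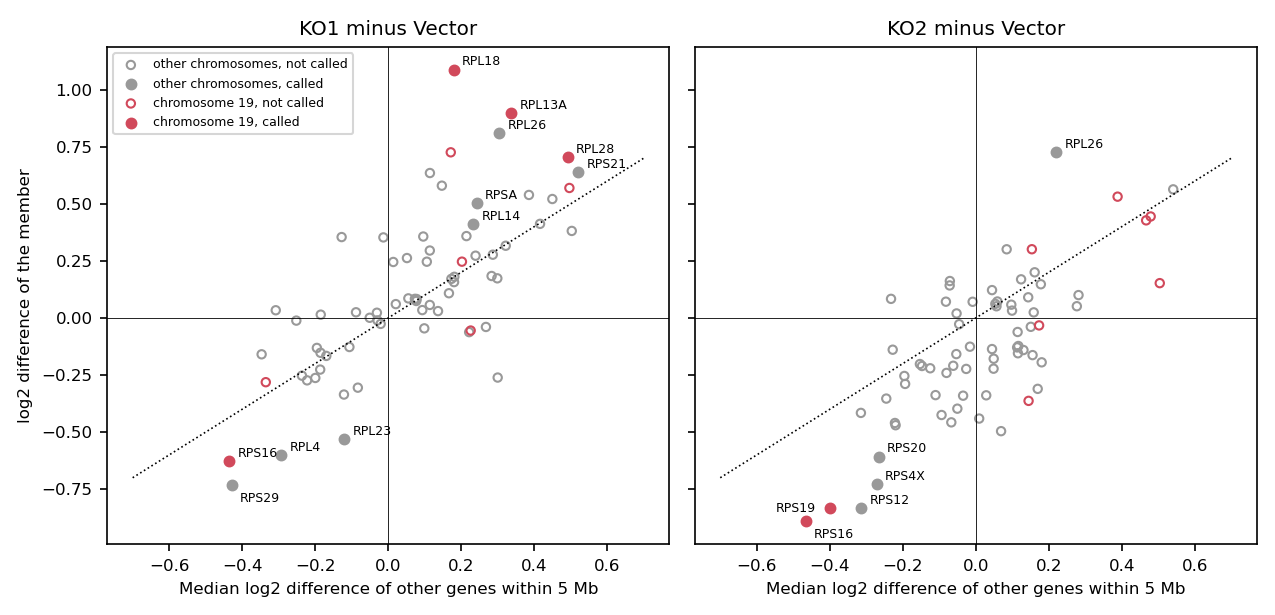
Each point is a member, with the median log2 difference of other genes within 5 Mb on the horizontal axis and its own log2 difference on the vertical axis, for KO1 minus Vector (left) and KO2 minus Vector (right). Filled points are called, chromosome 19 is red, and the dotted line marks equality. Over all 73 members r is 0.75 on the left and 0.78 on the right.

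Chromosome 19 holds 12 members, the most of any chromosome. On the long arm, RPS16 (chr19:39433207-39435948, hg38) and RPS19 (chr19:41859918-41872926) lay among genes that were lower in both clones. Their neighbours had medians of -0.44 and -0.34 in KO1 and -0.47 and -0.40 in KO2. RPS16 was at -0.63 in KO1 and -0.89 in KO2, and RPS19 at -0.28, not called, in KO1 and -0.83 in KO2.

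Further along, RPL18, RPL13A, RPS9 and RPL28 (chr19:48615328-55403250 from the first to the last) lay among genes that were higher, with neighbours' medians of 0.18 to 0.50 in KO1 and 0.39 to 0.50 in KO2. These 4 were at 0.57 to 1.09 in KO1, all but RPS9 called, and at 0.15 to 0.53 in KO2, with no call over all 9 libraries. Over the 7 libraries all 4 were called higher in KO2. In map order they were at 0.99, 0.75, 0.62 and 0.82 (limma adjusted p = 0.00115, 0.002, 0.00492 and 0.000849). RPS9 was then called in KO1 as well (0.78, limma adjusted p = 0.000988). After subtraction of neighbours RPL18 kept a KO1 difference of 0.84 and RPL13A of 0.51 (limma adjusted p = 0.0168 and 0.0299). In KO2 the same subtraction left 0.25 and 0.017, with no call. On the short arm RPS15, RPL36 and RPS28 had no call in either clone with all 9 libraries.

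**Figure D5:**
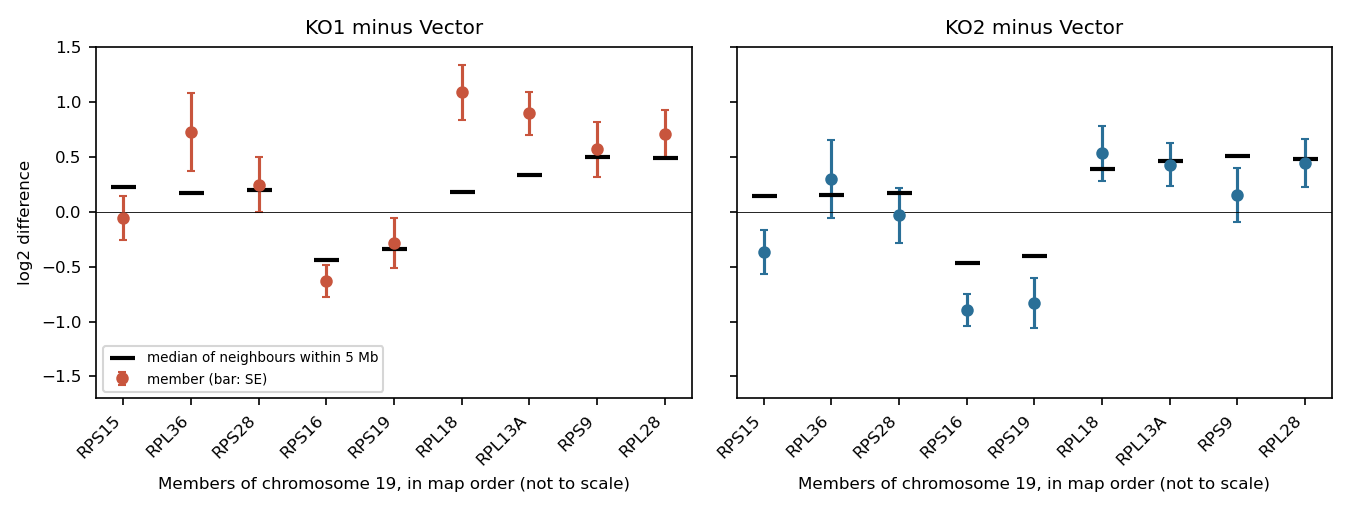
Members of chromosome 19 in map order, with log2 difference and its standard error for KO1 minus Vector (left) and KO2 minus Vector (right), and black bars for the median of other genes within 5 Mb. Bars and points are below 0 for RPS16 and RPS19 and above 0 for RPL18, RPL13A, RPS9 and RPL28 in both panels.

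Other calls lay among genes that differed in the same direction. RPS29 on chromosome 14 lay among genes with a median of 0.53 in KO2 against KO1 and -0.43 in KO1 against Vector. RPL21 on chromosome 13 lay among genes at -0.64 in KO2 against KO1, and after subtraction its difference was -0.087. RPSA, RPL14 and RPS21, all risers in KO1, had neighbours at 0.24, 0.23 and 0.52, and after subtraction stood at 0.22, 0.13 and 0.079 with no call. RPS12 on chromosome 6 had neighbours at -0.31 in KO2 against Vector and kept -0.51 after subtraction (limma adjusted p = 0.103).

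Paralogs outside the name pattern encode close relatives of members, and some can take a member's place in the ribosome. Of 8 such genes, RPL10L was listed at 0 in every library and RPL3L averaged 0.14 FPKM. RPL36AL, whose protein differs little from that of RPL36A, had 66.0, 66.8 and 61.5 FPKM in KO1 and 139, 144 and 76.3 FPKM in KO2, against 124, 94.9 and 109 FPKM in Vector. It fell in KO1 (-0.74, limma adjusted p = 0.0313) and was higher in KO2 than in KO1 (0.82, limma adjusted p = 0.0217), and it lies close to RPS29, at chr14:49618519-49620685 (hg38).

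RPL36A itself, below the limit on the mean, was at 2.01, 2.20 and 2.54 FPKM in KO1 and 2.47, 3.11 and 1.90 FPKM in KO2, against 5.30, 4.75 and 2.96 FPKM in Vector, and fell in both clones (-0.69 and -0.60, limma adjusted p = 0.0204 and 0.0427). RPL7L1, a homologue of RPL7 known from ribosome assembly, had 18.8, 19.7 and 21.6 FPKM in KO2 against 32.4, 31.3 and 27.4 FPKM in Vector (-0.57, limma adjusted p = 0.0034). RPL22L1, which RPL22 is known to repress, had 7.40, 7.51 and 4.51 FPKM in KO2 against 13.8, 11.8 and 8.88 FPKM in Vector (-0.75, limma adjusted p = 0.0196). RPL7L1 and RPL22L1 were below every Vector library in KO2, and RPL36A was so in KO1 only.

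The other 3 paralogs had no call against Vector with all 9 libraries. RPL26L1 averaged 35.2 ± 3.37 FPKM in KO1, 28.4 ± 4.78 FPKM in KO2 and 27.3 ± 3.14 FPKM in Vector, and RPL39L 17.5 ± 1.75, 12.9 ± 2.67 and 17.7 ± 2.53 FPKM in the same order (SD, n = 3 each). RPS27L averaged 3.13 ± 0.062 FPKM in KO1, 2.96 ± 0.284 FPKM in KO2 and 2.82 ± 0.781 FPKM in Vector. Over the 7 libraries RPL26L1 was higher in KO1 (0.27, limma adjusted p = 0.0368) and RPL39L lower in KO2 (-0.53, limma adjusted p = 0.0141). RPL26L1 was listed above RPL26 in all 9 libraries on the FPKM scale, which uses merged exon length for both.

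FAU, which encodes a small subunit protein fused to a ubiquitin-like protein, had no call with all 9 libraries. It had 132, 113 and 106 FPKM in KO1 and 131.7, 120.4 and 75.9 FPKM in KO2, against 86.4, 66.4 and 105 FPKM in Vector (0.46 and 0.33, limma adjusted p = 0.151 and 0.321). Its lowest KO2 value was in replicate 3, and over the 7 libraries it was called in both clones (0.62 and 0.73, limma adjusted p = 0.00748 and 0.00663).

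Lists of other translation genes were counted beside the shares over all genes fitted and not tested against them. Those shares were 17.4% higher and 16.7% lower in KO1, 27.9% called and 12.9% higher in KO2, and 14.5% higher and 16.4% lower in KO2 against KO1. Of 77 mitochondrial ribosomal protein genes fitted, 15 rose and 4 fell in KO1, 5 rose and 11 fell in KO2, and 3 rose and 18 fell in KO2 against KO1. Of 13 subunits of the initiation factor eIF3, which prepares the small subunit, 2 rose and 6 fell in KO1, and 0 rose and 5 fell in KO2. EIF3K, on chromosome 19 as RPS16 is, fell by 0.69 in KO1 and by 0.93 in KO2 on the log2 scale (limma adjusted p = 0.00148 and 0.000352), and EIF3D by 0.62 and 0.67 (limma adjusted p = 0.000911 and 0.000826). Of 22 other initiation genes, 2 rose and 6 fell in KO1 and 0 rose and 8 fell in KO2, among them EIF2S1, the alpha subunit of eIF2, at -0.99 and -0.89 (limma adjusted p = 0.000481 and 0.00111).

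A further list held 21 genes, mainly for ribosomal protein loading or ribosome assembly, though not all are known for these. Of the 21, 3 rose and 1 fell in KO1, 2 rose and 9 fell in KO2, and 11 fell and 0 rose in KO2 against KO1. SBDS, which releases eIF6 from the new large subunit, fell by 1.48 in KO2 (limma adjusted p = 0.000368), and RPF2, which brings the 5S particle to the large subunit, by 1.29 (limma adjusted p = 0.000476). GRWD1, whose yeast counterpart Rrb1 is the chaperone of Rpl3, rose by 0.96 in KO1 and 0.90 in KO2 (limma adjusted p = 0.00152 and 0.00283). Of 17 genes of RNA polymerase I and ribosomal RNA modification, 1 rose and 3 fell in KO1 and 0 rose and 6 fell in KO2, with FBL, the fibrillarin methyltransferase, at -0.68 and -0.91 (limma adjusted p = 0.00214 and 0.000586).

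Of 13 genes that control 5′ TOP messages, 3 rose and 0 fell in KO1 and 2 rose and 1 fell in KO2, with RPS6KB2, an S6 kinase, at 0.82 and 0.73 (limma adjusted p = 0.00367 and 0.00833). LARP1 had 87.8, 89.0 and 87.3 FPKM in KO1 and 81.5, 79.0 and 83.4 FPKM in KO2, against 66.2, 71.5 and 84.5 FPKM in Vector, with no call with all 9 libraries (limma adjusted p = 0.103 and 0.375). Without Vector replicate 3 and KO2 replicate 3 it was called in both clones (0.35 and 0.22, limma adjusted p = 0.00103 and 0.0143). MTOR stood at 11.2 to 11.7 FPKM in KO1, 11.0 to 15 FPKM in KO2 and 11.5 to 15.3 FPKM in Vector, with no call over 9 or 7 libraries.

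Genes outside the ribosome that are known for 5′ TOP messages had a median difference of 0.017 in KO2 replicate 3 relative to KO2 replicates 1 and 2 (10 genes). Of these 10, 0 rose and 1 fell in KO1, and 0 rose and 0 fell in KO2; the gene that fell was PABPC1, the poly(A)-binding protein (-0.86, limma adjusted p = 0.00102). EEF1A1, at 2597, 2436 and 2358 FPKM in KO1, 2790, 2789 and 2865 FPKM in KO2 and 3555, 2999 and 2820 FPKM in Vector, and RACK1, a ribosome-bound scaffold at 304.5 to 369 FPKM in all 9 libraries, were not called with all of them. Over 7 libraries EEF1A1 was lower in KO1 (-0.41, limma adjusted p = 0.0216). MYC had 63.5, 57.1 and 54.7 FPKM in KO1 and 53.6, 50.9 and 26.1 FPKM in KO2, against 86.3, 79.4 and 97.4 FPKM in Vector, and was called in KO2 (-1.06, limma adjusted p = 0.0107) but not in KO1 (-0.58, limma adjusted p = 0.093). KO2 replicate 3 was lowest for MYC too, and over the 7 libraries MYC fell in both clones (-0.50 and -0.65, limma adjusted p = 0.00145 and 0.000852). Whether the members' levels follow MYC was not tested.

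Of 14 genes of ribosome surveillance fitted, 3 rose and 1 fell in KO1 and 1 rose and 1 fell in KO2. ZNF598, the ligase named above with RPS20, rose by 1.06 in KO1 (limma adjusted p = 0.00564), and MDM2, the ubiquitin ligase that RPL5 and RPL11 can bind, by 0.55 in KO1 and 0.66 in KO2 (limma adjusted p = 0.0345 and 0.0192). Of 9 genes listed with the elongation factors, not all of them factors themselves, 1 rose and 0 fell in KO1 and 1 rose and 3 fell in KO2. The KO2 riser was EEF1A2, the form of EEF1A usual in muscle and neurons (1.28, limma adjusted p = 0.00179). Pseudogene rows of the members, of which 126 passed the low-value filter, had 10 higher and 6 lower in KO1 and 8 higher and 5 lower in KO2.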

How the data were processed

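The deposited table holds FPKM for 58735 genes. Per the submitters' processing notes, the authors' tools were featureCounts 1.5.0-p3, HISAT2 2.0.5 and CASAVA 1.6, and their build was hg38. The strand setting or handling of reads that fit several places is not given in the sources used here. Gene identifiers matched GENCODE 29, whose positions and merged exon lengths are used. FPKM times exon length gave whole reads for 100% of values (tolerance 0.02), 16002212 to 17090445 per library, and intervals or spreads reflect counting error and these libraries only. For the test, log2(FPKM + 1) of the 16426 genes averaging 0.5 FPKM or more (the 73 members included) entered limma 3.58.1 under R 4.3.3, with a trend in the prior variance and a mean per group over all 9 libraries. Fold changes are on this log2 scale, which understates changes of low genes. P-values were Benjamini-Hochberg adjusted over all fitted genes in a comparison, and called genes have an adjusted p under 0.05. The comparisons with Vector share its libraries. The procedure was tested on simulated data. The labels do not say whether a replicate number marks a shared culture or day, and libraries were fitted as unpaired. Members and lists were chosen with earlier results of these data known. The values of every library are given for the 4 rising and 4 falling members with the smallest p in each comparison, the 3 highest and 3 lowest by mean and paralogs of at least 1 FPKM, and at most 3 rising and 3 falling genes of each other list are named; other members and genes named with values (among them RPL5, RPL11, RPL36, RPS6, RPS14, RPS19, RPS27, the RPLP genes, EEF1A1, LARP1, MTOR, MYC and RACK1) were chosen after their values were seen or for their role. Some genes that these rules pick are not reported here and are left out of plots of single genes, while counts, sums and medians include them. Lung, epithelial and other cell type markers were checked as lists.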

Additional observations from a re-analysis of the deposited data

Results flagged for a closer look

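Some members and paralogs were called between the 2 clones by the test of that difference itself, KO2 against KO1 in limma with Benjamini-Hochberg adjustment. They were 8 of 73 members, or 11.0%, beside 30.9% of all genes fitted, and of 6 paralogs fitted 1 rose and 1 fell. RPL36AL was higher in KO2 by 0.82 (adjusted p = 0.0217) on the log2 scale, and its neighbour RPS29 by 1.03. Lower in KO2 were RPS12 at -0.70 (adjusted p = 0.0242), RPL21 at -0.70 (adjusted p = 0.0123), RPS4X at -0.60 (adjusted p = 0.0253) and RPS6 at -0.57 (adjusted p = 0.045). RPL32 at -0.54 (adjusted p = 0.0339), RPL7L1 at -0.42 (adjusted p = 0.014) and RPSA at -0.41 (adjusted p = 0.0329) were lower as well, and RPS15A stood at -0.50. RPS29 has a KO1 mean and RPS15A a KO2 mean under 10 FPKM, so that each is a member only through groups in which it is higher, and both values are descriptions with no test. RPS6, RPL32, RPL21 and RPSA differed from Vector by 0.36, 0.38, 0.41 and 0.50 in KO1, and by -0.21, -0.15, -0.29 and 0.090 in KO2. Of these, RPSA in KO1 was the only difference called with all 9 libraries. Over the 7 libraries RPS6, RPL32 and RPL21 were also higher in KO1 (0.30, 0.35 and 0.24, limma adjusted p = 0.0224, 0.0175 and 0.0407). RPL21 was lower in KO2 (-0.36, limma adjusted p = 0.0134).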

How the results depend on the processing

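Of 616 values of the 28 member calls under other settings, 472 kept direction and call, 144 lost the call and 0 reversed; RPL4 in KO1 against Vector was among those called in all of them. Counts are given as risen and fallen members in the order KO1 against Vector, then KO2 against Vector, then KO2 against KO1. With no filter on low values they were 1 and 1, 1 and 1, and 1 and 0. Scaling to an equal FPKM sum gave 5 and 4, 2 and 5, and 2 and 1, and a sum without the members 4 and 4, 2 and 3, and 2 and 1. Fitting only the 6 libraries compared gave 14 and 5, 1 and 3, and 1 and 5. Without Vector replicate 3 and KO2 replicate 3 they were 27 and 9, 21 and 12, and 7 and 10, and with library weights 31 and 9, 28 and 11, and 8 and 21. Subtracting neighbours gave 6 and 1, 1 and 0, and 1 and 1, and removing the GC and length trend 13 and 5, 3 and 9, and 2 and 8. Limma-voom on recovered reads, added after seeing the data, gave 10 and 4, 2 and 7, and 1 and 12, and all 77 rows, also added then, 9 and 6, 2 and 6, and 1 and 7. Leaving out 1 library gave 4 to 19 and 2 to 6, 1 to 8 and 2 to 10, and 1 to 2 and 0 to 9, with medians of 0.066 to 0.21, -0.24 to 0.096 and -0.40 to -0.040. The median in KO1 against Vector was -0.0021 at an equal FPKM sum. The share of all genes that were called moved with the settings too: with library weights 34.0% rose and 31.6% fell in KO1, 30.6% rose and 30.7% fell in KO2, and 27.7% rose and 31.7% fell in KO2 against KO1. With no filter these shares were 2.76% to 4.19%. In KO1 against Vector 12.8% of all genes rose and 19.7% fell at an equal FPKM sum. At a sum without the members these were 12.6% and 19.1%, and with the 6 libraries compared 17.2% and 16.4%. Subtracting neighbours gave 14.4% and 14.7%, removing the GC and length trend 23.1% and 22.9%, and limma-voom 18.9% and 17.5%. The cause of these shifts was not tested. Whether replicate numbers pair the libraries is not stated, and deviations of libraries with the same number had correlations of -0.20 to 0.14. With the replicate block counts were 10 and 4, 2 and 6, and 1 and 7. In KO1 against Vector 15.1% of all genes then rose and 14.8% fell. An edgeR test was not run because the deposited unit is FPKM.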
